A study of Arabidopsis thaliana with 12 samples.

Results

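The mitochondrial genes and ribosomal RNAs (rRNAs) of Arabidopsis thaliana seedlings were followed through 12 RNA-seq libraries. They were taken from the count table as every row on the mitochondrial chromosome and every row typed as rRNA on any chromosome, with 20 or more counts summed over all libraries. Of 32833 genes in the table, 164 met the first condition and 43 met both. These 43 genes comprised 34 on the mitochondrial chromosome and 11 rRNA genes, of which 2 (RRN18 and RRN26) belong to both groups. The threshold fell between ORF107B and ORF291, each with 20 counts, just inside it, and CCB382 with 19 counts and RPS4 with 16 counts just outside it.

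Whole seedlings, 7 days old and grown in liquid medium with sucrose, made up 4 groups of 3 libraries. The groups were tpst without treatment, tpst after 5 h with 100 nM phytosulfokine (PSK), tpst after 5 h with 1 µM PSK, and Col-0 without treatment. tpst is a single T-DNA insertion line in tyrosylprotein sulfotransferase, the enzyme that sulfates PSK and other secreted peptides, so the mutant lacks the other sulfated peptides as well as active PSK. Col-0 is the wild type, and both PSK groups and their untreated reference carry the same mutation. Each library came from pooled seedlings. For both untreated groups the labels list neither a treatment nor any hours of it, whereas the study's methods describe a water mock, and it is unclear at which hour they were harvested.

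Plant cells hold 3 sets of ribosomes. Cytosolic ribosomes use 18S, 5.8S and 25S rRNA transcribed from long nuclear repeats, mitochondria use the 18S and 26S rRNAs of their own genome, and chloroplasts use 16S, 23S, 4.5S and 5S rRNAs encoded in an inverted repeat, so that each gene is present as a pair of copies. The mitochondrial genome encodes in addition a small part of the respiratory chain (nad genes for complex I, cob for complex III, cox for complex IV, atp for the ATP synthase), proteins that assemble cytochrome c (ccm), some ribosomal proteins, the splicing factor matR and many open reading frames (ORFs) of no known function. The libraries were made from RNA selected for poly(A) tails. rRNA does not carry the tails of nuclear mRNA, and in plant organelles a tail commonly marks RNA for decay, so the counts below describe what passed the selection and not the rRNA content of the seedlings.

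The small-subunit rRNAs of the 3 genomes share an ancestor. The longest run of bases common to all of them was 19 bases long, and it is shown here in capitals because it identifies the nuclear, mitochondrial and chloroplast members as the same molecule of 3 ribosomes (RefSeq sequences of TAIR10.1, written on the gene's strand).
AT3G41768, nuclear 18S, chr3:14198232-14198280, plus strand: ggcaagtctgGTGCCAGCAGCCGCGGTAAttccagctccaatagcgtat
RRN18, mitochondrial 18S, bases 127673 to 127721 of the Col-0 mitochondrion, minus strand: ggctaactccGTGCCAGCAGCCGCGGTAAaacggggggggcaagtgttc
RRN16S.1, chloroplast 16S, bases 101464 to 101512 of the chloroplast, plus strand: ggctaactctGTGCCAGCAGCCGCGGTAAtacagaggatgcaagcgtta
The run lies in the decoding region of the small subunit. All 3 RNAs were lower in the 1 µM PSK libraries, as described below.

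Total counts per library lay between 17066292 and 24948416, and the 1 µM PSK libraries, with 17066292 to 19993257, were the shallowest. Of the 43 genes, 26 had enough counts to be tested, 9 of them rRNA. The other 17 had 20 to 82 counts in all. A gene that passed this filter mainly through the groups in which it was high had to differ, so counts over the tested genes describe them and are not support. Levels are given as CPM (counts per 1000000 counts, scaled by TMM, the trimmed mean of M values) with the standard deviation (SD) over 3 libraries. Changes are log2 fold changes with their standard error (SE), and a gene was called at a Benjamini-Hochberg adjusted p under 0.05 in edgeR's quasi-likelihood test over 20506 genes.

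The main pattern was a lower level of rRNA at 1 µM PSK, in all 3 compartments and in every library of that group. Against untreated tpst, 8 of the 26 tested genes were called, all of them lower, where 6.45% of all tested genes were called and 3.45% were called lower. They were the nuclear 18S gene AT3G41768, the mitochondrial RRN18 and RRN26, the chloroplast RRN23S.1, RRN23S.2, RRN16S.1 and RRN16S.2, and the mitochondrial ORF107A. In 17 of the 26 the 1 µM PSK libraries all lay below the untreated tpst libraries, as they did in 13.1% of all tested genes. The median log2 change was -1.54 over the 26 tested genes and 0.0024 over all genes. In bulk samples, fewer cells of a type and less RNA per cell cannot be told apart. The labels name no batch, so a handling step particular to the 1 µM PSK libraries and the dose cannot be told apart either.

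AT3G41768 is one of a pair of nuclear 18S genes in the table (TAIR10 chr3:14197677-14199484, plus strand, a single exon of 1808 bases). It had by far the highest level per length of the 43 genes, with an FPKM (fragments scaled by gene length and by library, computed by the authors) that averaged 1199 over the libraries and ranked 22 among all genes. Its level was 3080, 2896 and 2936 CPM in untreated tpst, 3210, 2545 and 2987 CPM with 100 nM PSK, 557, 507 and 458 CPM with 1 µM PSK, and 2558, 2878 and 1555 CPM in Col-0. The 1 µM PSK libraries were below every other library, and the third Col-0 library was the lowest of the other 9. The log2 change at 1 µM PSK against untreated tpst was -2.55 (SE 0.218, adjusted p = 0.00021 in edgeR's quasi-likelihood test), a level 5.85-fold lower.

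The mitochondrial rRNAs were lowest with 1 µM PSK as well. RRN18, the small-subunit rRNA of the mitochondrial ribosome, had 240, 236 and 283 CPM in untreated tpst, 166, 203 and 243 CPM with 100 nM PSK, 31.4, 38.0 and 33.5 CPM with 1 µM PSK, and 290, 277 and 255 CPM in Col-0. It was 7.38-fold lower at 1 µM PSK than in untreated tpst, with a log2 change of -2.88 (SE 0.152, adjusted p = 4.6e-06 in edgeR's test). RRN26, the large-subunit rRNA, had 122, 108.1 and 121 CPM in untreated tpst, 100.1, 107 and 120 CPM with 100 nM PSK, 35.5, 31.5 and 35.5 CPM with 1 µM PSK, and 112, 132 and 131 CPM in Col-0. No 1 µM PSK library reached the lowest of the other 9 for either gene. RRN26 was 3.42-fold lower at 1 µM PSK than in untreated tpst, with a log2 change of -1.77 (SE 0.0792, adjusted p = 8.1e-13 in edgeR's test), the smallest adjusted p among the 43 genes.

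The ratio between the 2 mitochondrial rRNAs also stood apart at 1 µM PSK, which is given as a description without a test. Counts of RRN18 were 0.885 to 1.20 times those of RRN26 in the 1 µM PSK libraries, against 1.97 to 2.34 times in untreated tpst. The ratio was 1.66 to 2.03 with 100 nM PSK and 1.94 to 2.58 in Col-0, so the 1 µM PSK libraries did not overlap any other group.

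The chloroplast rRNAs included the 3 largest changes among the called genes. RRN23S.2, a copy of the large-subunit 23S rRNA, had 17.4, 11.5 and 14.7 CPM in untreated tpst, 9.65, 11 and 12.5 CPM with 100 nM PSK, 1.43, 1.5 and 2.01 CPM with 1 µM PSK, and 13.0, 10.2 and 10.9 CPM in Col-0. RRN16S.1, a copy of the small-subunit 16S rRNA, had 4.59, 3.44 and 4.35 CPM in untreated tpst, 2.94, 2.96 and 3.51 CPM with 100 nM PSK, 0.563, 0.301 and 0.371 CPM with 1 µM PSK, and 2.66, 3.37 and 2.70 CPM in Col-0. In both genes the 1 µM PSK libraries lay apart from the rest. The log2 changes against untreated tpst were -3.13 (SE 0.192, adjusted p = 2.0e-11) for RRN23S.2 and -3.29 (SE 0.300, adjusted p = 2.4e-08) for RRN16S.1, in edgeR's test. The change of RRN16S.1 rests on 23 counts in the 3 libraries with 1 µM PSK, against 270 in untreated tpst.

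Their second copies behaved alike. RRN23S.1 averaged 1.75 ± 0.606 CPM with 1 µM PSK and 14.5 ± 3.24 CPM in untreated tpst (SD, n = 3 each), a log2 change of -3.05 (SE 0.305, adjusted p = 4.8e-05 in edgeR's test). RRN16S.2 averaged 0.673 ± 0.126 CPM with 1 µM PSK and 3.75 ± 0.604 CPM in untreated tpst (SD, n = 3 each), a log2 change of -2.47 (SE 0.280, adjusted p = 1.0e-06 in edgeR's test). In the reference sequence the copies of the 23S gene differed at 0 of 2810 bases, those of the 16S gene at 0 of 1491 bases and those of the 4.5S gene at 0 of 103 bases. Fragments of one copy cannot be assigned by sequence, so the 2 rows of each pair are not independent measurements. RRN4.5S.2 with 44 counts in all and RRN4.5S.1 with 21 counts were too low to be tested.

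**Figure D1:**
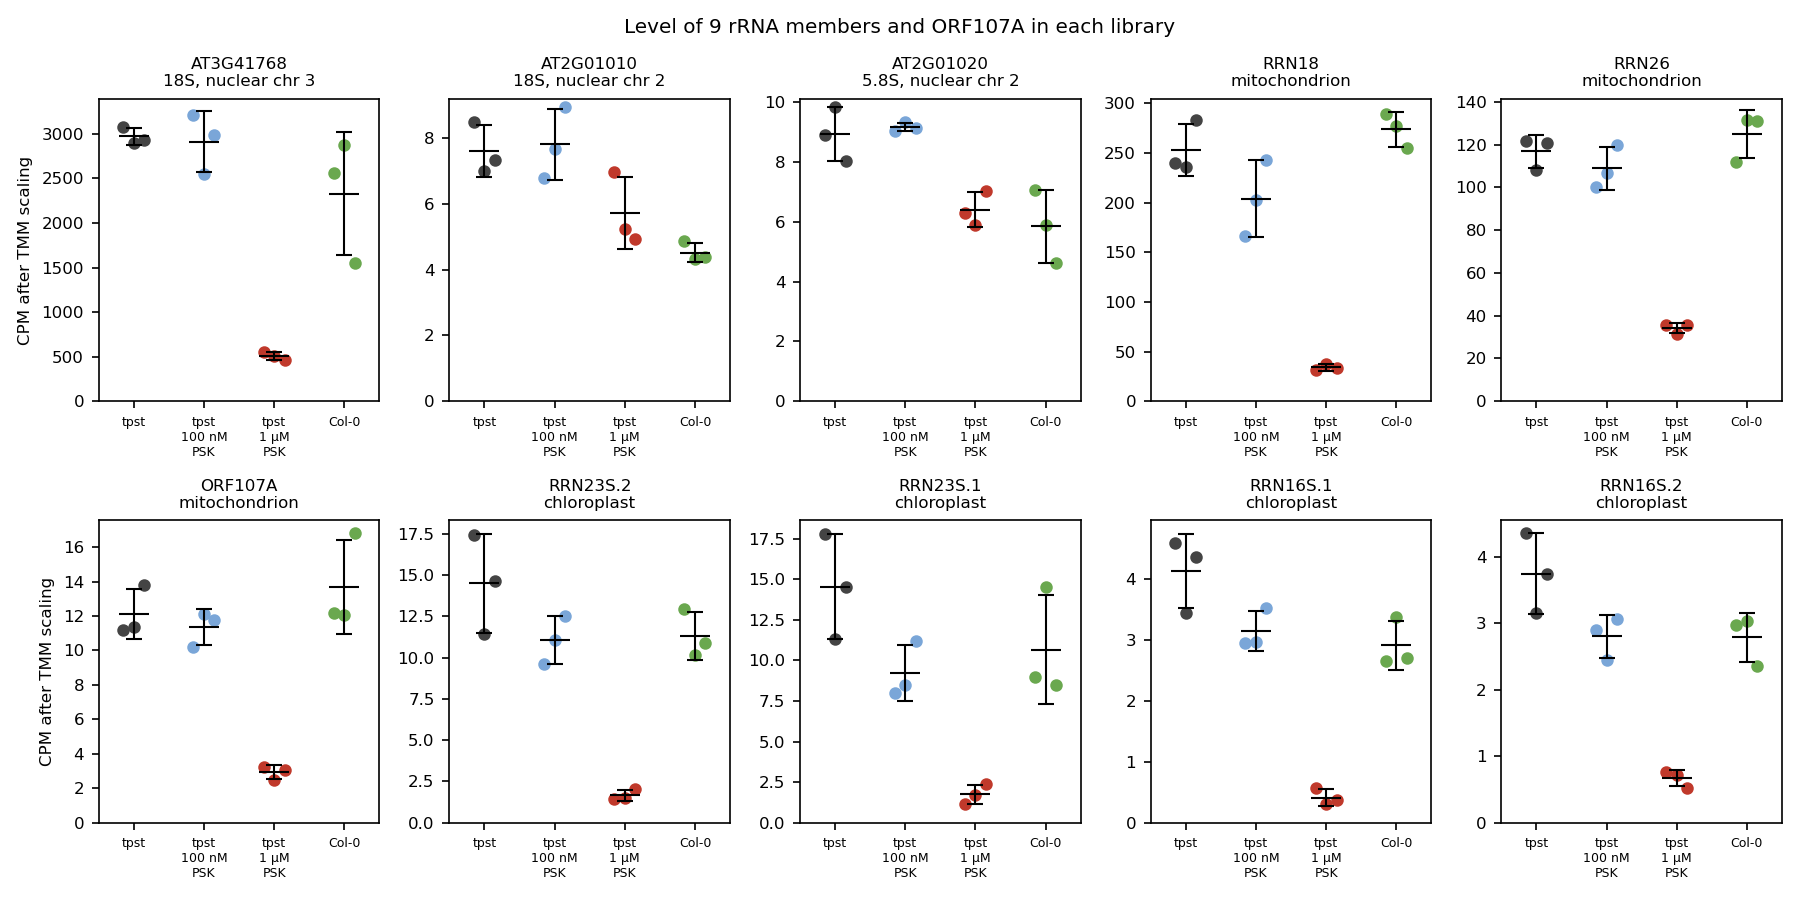
Level of 9 rRNA genes and ORF107A in CPM after TMM scaling (vertical axes, each from 0) in the 3 libraries of each group (points, in replicate order), with the mean and SD (bars). The 1 µM PSK libraries lie below every other library in 8 panels, such as AT3G41768 with 458 to 557 CPM, but not for AT2G01010 and AT2G01020, where their range, 4.93 to 6.96 CPM for AT2G01010, meets that of other groups.

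The remaining nuclear rRNA genes were exceptions. AT2G01010, the second 18S gene (TAIR10 chr2:3706-5513), had 8.49, 6.99 and 7.33 CPM in untreated tpst, 6.80, 7.67 and 8.95 CPM with 100 nM PSK, 6.96, 5.23 and 4.93 CPM with 1 µM PSK, and 4.86, 4.31 and 4.39 CPM in Col-0. Its log2 change at 1 µM PSK against untreated tpst was -0.41 (SE 0.165, adjusted p = 0.155 in edgeR's test). AT2G01020, a 5.8S gene (TAIR10 chr2:5782-5945), had 8.90, 9.86 and 8.04 CPM in untreated tpst, 9.05, 9.34 and 9.16 CPM with 100 nM PSK, 6.29, 5.90 and 7.05 CPM with 1 µM PSK, and 7.07, 5.89 and 4.61 CPM in Col-0. Its log2 change at 1 µM PSK against untreated tpst was -0.48 (SE 0.154, adjusted p = 0.063 in edgeR's test). For both genes the 1 µM PSK libraries lay below all untreated tpst libraries, but neither change passed the test over the 12 libraries. AT2G01020 was called in a fit of the 6 libraries compared (adjusted p = 0.028 in edgeR's test) and without the first (adjusted p = 0.047) or the third Col-0 library (adjusted p = 0.022).

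The 18S genes on chromosomes 2 and 3 are nearly the same sequence. They differed at 2 of 1808 bases in the reference, and those places are printed with 20 bases on either side because only fragments that cover one of them can be assigned (positions count from 1 at the gene's 5′ end, and the differing base is in capitals).
AT3G41768, chr3:14198145-14198185: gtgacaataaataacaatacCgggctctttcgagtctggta
AT2G01010, chr2:4174-4214: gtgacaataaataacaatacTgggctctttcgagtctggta
AT3G41768, chr3:14198983-14199023: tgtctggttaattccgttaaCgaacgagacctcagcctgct
AT2G01010, chr2:5012-5052: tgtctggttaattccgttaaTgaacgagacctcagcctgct
The substitutions from AT3G41768 to AT2G01010 are C489T and C1327T. Despite this likeness AT3G41768 held 587728 counts and AT2G01010 held 1676. The count of AT3G41768 was 80.0 to 96.9 times that of AT2G01010 with 1 µM PSK, 363 to 414 times in untreated tpst, 332 to 472 times with 100 nM PSK and 355 to 668 times in Col-0. The 5.8S genes of the same loci differed at 0 of 164 bases, and there AT2G01020 held 1989 counts while its copy on chromosome 3, AT3G41979, held 0. How the authors treated fragments that align to several places is not given in the sources used here, so the split between copies is uncertain and the changes of AT2G01010 and AT2G01020 cannot be set against that of AT3G41768 as changes of separate genes.

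Of the 43 genes ORF107A was the only one outside the rRNAs that edgeR called over the 12 libraries in any of the 4 comparisons. It is an unassigned mitochondrial ORF of 324 bases and had the fifth highest FPKM of the 43 genes. Its level was 11.2, 11.4 and 13.8 CPM in untreated tpst, 10.2, 12.1 and 11.8 CPM with 100 nM PSK, 3.22, 2.47 and 3.07 CPM with 1 µM PSK, and 12.2, 12 and 16.8 CPM in Col-0. The 1 µM PSK libraries lay below all others. It was 4.12-fold lower at 1 µM PSK than in untreated tpst, with a log2 change of -2.04 (SE 0.167, adjusted p = 3.7e-09 in edgeR's test).

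ORF107A is a neighbour of RRN26. In the deposited coordinates RRN26 spans bases 8848 to 11415 on the minus strand, and ORF107A spans bases 11918 to 12241 on the plus strand, with 502 bases between them. The RefSeq sequence of the Col-0 mitochondrion, on which these coordinates cannot be placed, annotates an rrn26 that is 601 bases longer than in the deposited table. There rrn26 runs from base 140797 to 143965 on the minus strand and ORF107A from base 143781 to 144104 on the plus strand, so that 185 bases of the ORF lie opposite the rRNA. Counts of RRN26 were 11 to 12.8 times those of ORF107A with 1 µM PSK, 8.77 to 10.9 times in untreated tpst, 8.81 to 10.2 times with 100 nM PSK and 7.80 to 10.9 times in Col-0. The strand setting of the counting is not given in the sources used here, so fragments of the rRNA and of the ORF cannot be told apart where they overlap.

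The mitochondrial genes other than rRNA were sparse. All 32 of them together reached a mean of 10.5 CPM with 1 µM PSK and 25.6 CPM in untreated tpst, of which ORF107A alone made up 2.92 CPM and 12.1 CPM. Over these 32 genes, 27 had a lower mean with 1 µM PSK than in untreated tpst and 5 had a higher one. Of the 17 that were tested, 16 had a negative log2 change, as did 10129 of all 20506 tested genes. Among the 17 edgeR called ORF107A alone, with 8 at an unadjusted p under 0.05, which 18.9% of all tested genes reached. DESeq2 called ORF107A and ATMG00090, both lower.

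Complex I had 9 genes, of which 5 were tested and 0 were called by edgeR or by DESeq2, with 3 at an unadjusted p under 0.05 in edgeR, a threshold that 18.9% of all tested genes reached. NAD9, a subunit of the peripheral arm, had the highest mean CPM of them, though per length NAD1B was higher. NAD9 had 0.614, 0.301 and 0.318 CPM with 1 µM PSK and 1.15, 0.941 and 0.657 CPM in untreated tpst. The libraries did not overlap, but the log2 change of -1.13 (SE 0.479) had an adjusted p of 0.181 in edgeR's test. The 5 log2 changes lay between -2.34 and -0.44. NAD7, another subunit of the peripheral arm, was called lower in a fit of the 6 libraries compared (adjusted p = 0.038 in edgeR's test), without the third Col-0 library (0.045) and without the first 1 µM PSK library (0.016), and NAD1B without the third Col-0 library (0.038). NAD4 had 0 counts in the 3 libraries with 1 µM PSK and 11 counts in untreated tpst. With 3 counts over the group in place of 0 it was 3.06-fold lower. That fold allows for the counting error of the 0 alone. It takes the 11 counts as exact and leaves out the spread between libraries.

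Among the complex IV genes COX1, the catalytic subunit of cytochrome c oxidase, averaged 0.667 ± 0.295 CPM with 1 µM PSK and 0.728 ± 0.125 CPM in untreated tpst (SD, n = 3 each). This difference was within the spread of the libraries (log2 change -0.12, SE 0.475, adjusted p = 0.932 in edgeR's test). COX2 had a log2 change of -0.99 (SE 0.623). Of the ATP synthase genes ORF25, which encodes the atp4 subunit, averaged 0.169 ± 0.125 CPM with 1 µM PSK and 0.523 ± 0.15 CPM in untreated tpst (SD, n = 3 each), without a call (log2 change -1.65, adjusted p = 0.202 in edgeR's test). CCB206, which encodes the CcmB protein of cytochrome c maturation, had 7 counts with 1 µM PSK and 14 in untreated tpst and was too low to be tested.

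ATMG00090, which encodes the mitochondrial ribosomal protein S3, had the lowest adjusted p after ORF107A among the mitochondrial genes other than rRNA. It had 0.768, 0.722 and 1.11 CPM with 1 µM PSK and 1.42, 1.64 and 2.48 CPM in untreated tpst. The groups did not overlap, and the log2 change was -1.07 (SE 0.337, adjusted p = 0.056 in edgeR's test). DESeq2 called it lower both against untreated tpst (adjusted p = 0.045) and against 100 nM PSK (adjusted p = 0.043). MATR, the intron maturase, had a log2 change of -0.41 (SE 0.616). Of 12 further ORFs 4 were tested, and their log2 changes lay between -2.93 for ORF294 and 0.23 for ORF149. ORF107B had 0 counts with 1 µM PSK and 8 in untreated tpst, 2.22-fold lower against the same floor and with the same limits. ORF291 had 0 counts with 1 µM PSK and 3 in untreated tpst.

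**Figure D2:**
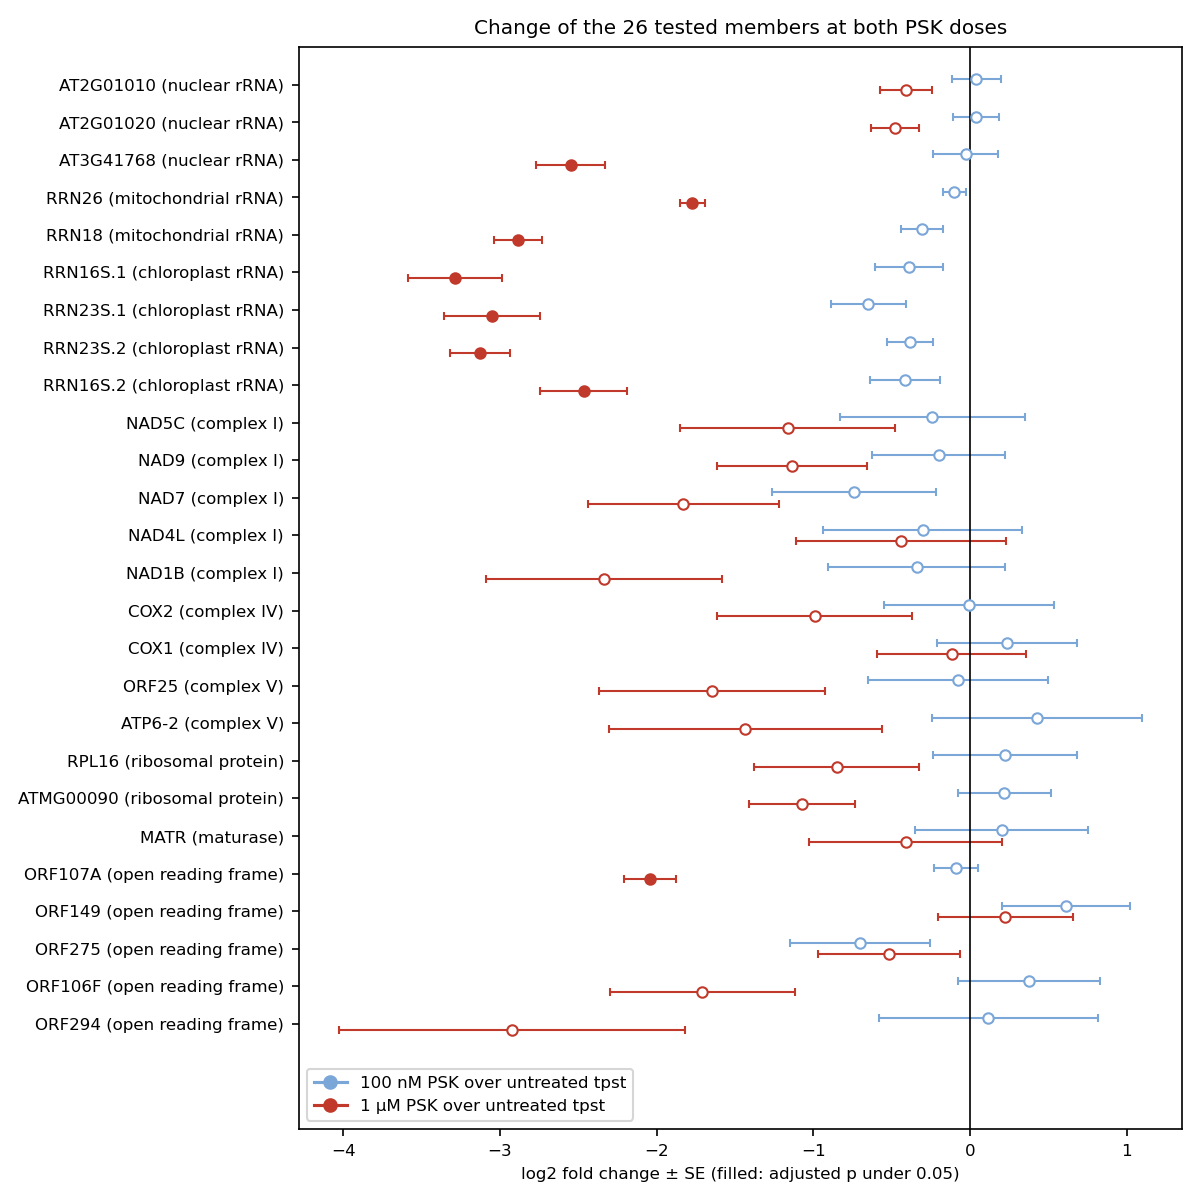
Log2 fold change (horizontal axis) with its SE (bars) for the 26 tested genes, at 100 nM PSK (blue) and at 1 µM PSK (red), both over untreated tpst. Filled points had an adjusted p under 0.05: there are 8 at 1 µM PSK and 0 at 100 nM PSK, and 25 of the 26 red points lie below 0.

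At 100 nM PSK 0 of the 26 tested genes were called against untreated tpst by edgeR and by DESeq2, where 3.20% of all tested genes were called by edgeR. At an unadjusted p under 0.05, which 12.6% of all tested genes reached, there were 3, RRN23S.2, RRN23S.1 and RRN18, all lower. RRN23S.1 had the largest change of them, with 7.99, 8.50 and 11.2 CPM with 100 nM PSK and 17.8, 11.3 and 14.5 CPM in untreated tpst, a log2 change of -0.65 (SE 0.239, adjusted p = 0.237 in edgeR's test). AT3G41768 differed by less than the spread of the libraries (log2 change -0.03, SE 0.21). The median log2 change was -0.08 over the 26 genes. When the third 100 nM PSK library was left out RRN18 was called, and when the second Col-0 library was left out RRN23S.1 was called, so that the count was 1 in each of these fits.

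The doses were also set against each other. At 1 µM PSK against 100 nM PSK the same 8 genes were called lower, although only 49 of the 20506 genes tested, 0.239%, were called at all and 0.112% were called lower. Of the 9 genes in the whole table that were called and at least 2-fold lower, 0.0439% of those tested, 8 were these members. The remaining one was the chloroplast gene PSBC, a photosystem II antenna protein, which was named after its value was seen. The log2 changes were -2.90 for RRN16S.1, -2.74 for RRN23S.2, -2.58 for RRN18, -2.52 for AT3G41768, -2.40 for RRN23S.1, -2.05 for RRN16S.2, -1.95 for ORF107A and -1.67 for RRN26. Both comparisons of 1 µM PSK share its libraries. Without the third Col-0 library the number of genes called in the whole table was 535 in place of 49 and that of members 11, and without the second 1 µM PSK library it was 19, of which 7 were members, with RRN23S.1 lost (adjusted p = 0.084 in edgeR's test).

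The same picture appeared in shares of all counts, which involve no scaling between libraries. Nuclear rRNA took 507 ± 48.9 per 1000000 counts with 1 µM PSK and 2943 ± 84.3 in untreated tpst (SD, n = 3 each), a share 5.8-fold lower. The share of all mitochondrial genes was 77.6 ± 0.0658 per 1000000 counts with 1 µM PSK and 391 ± 32.1 in untreated tpst (SD, n = 3 each), 5.04-fold lower. That of chloroplast rRNA was 4.55 ± 0.637 with 1 µM PSK and 36.6 ± 7.05 in untreated tpst (SD, n = 3 each), 8.06-fold lower. The groups did not overlap in any of these shares, and the two-sided exact permutation test gave p = 0.1 for each, the smallest value that 3 against 3 libraries allow. Adjusted over the 4 comparisons of a share, p was 0.2 for both rRNA shares and 0.133 for the mitochondrial share.

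The nuclear classes of RNA that the selection rule did not use differed by smaller factors, in both directions. Small nucleolar RNAs, which guide rRNA modification, took 179 ± 15.2 per 1000000 counts with 1 µM PSK and 199 ± 17.9 in untreated tpst (SD, n = 3 each). Nuclear tRNA genes took 3.45 ± 0.481 per 1000000 counts with 1 µM PSK and 4.0 ± 0.670 in untreated tpst (SD, n = 3 each), and nuclear long noncoding RNAs took 500.2 ± 13.5 with 1 µM PSK and 537 ± 15.6 in untreated tpst. Nuclear ncRNA took 918 ± 20.5 with 1 µM PSK and 851 ± 14.4 in untreated tpst, 1.08-fold higher, and small nuclear RNAs of the spliceosome took 2.57 ± 0.358 and overlapped the 1.62 ± 0.862 in untreated tpst, 1.59-fold higher by the means. Mitochondrial genes other than rRNA, which the rule did draw on, took 10.7 ± 1.36 per 1000000 counts with 1 µM PSK and 26.6 ± 3.04 in untreated tpst (SD, n = 3 each), 2.48-fold lower, and 7.88 ± 1.13 against 14.7 ± 1.65 when ORF107A was left out. Depth was lowest in the same libraries, and its part in these differences was not tested.

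**Figure D3:**
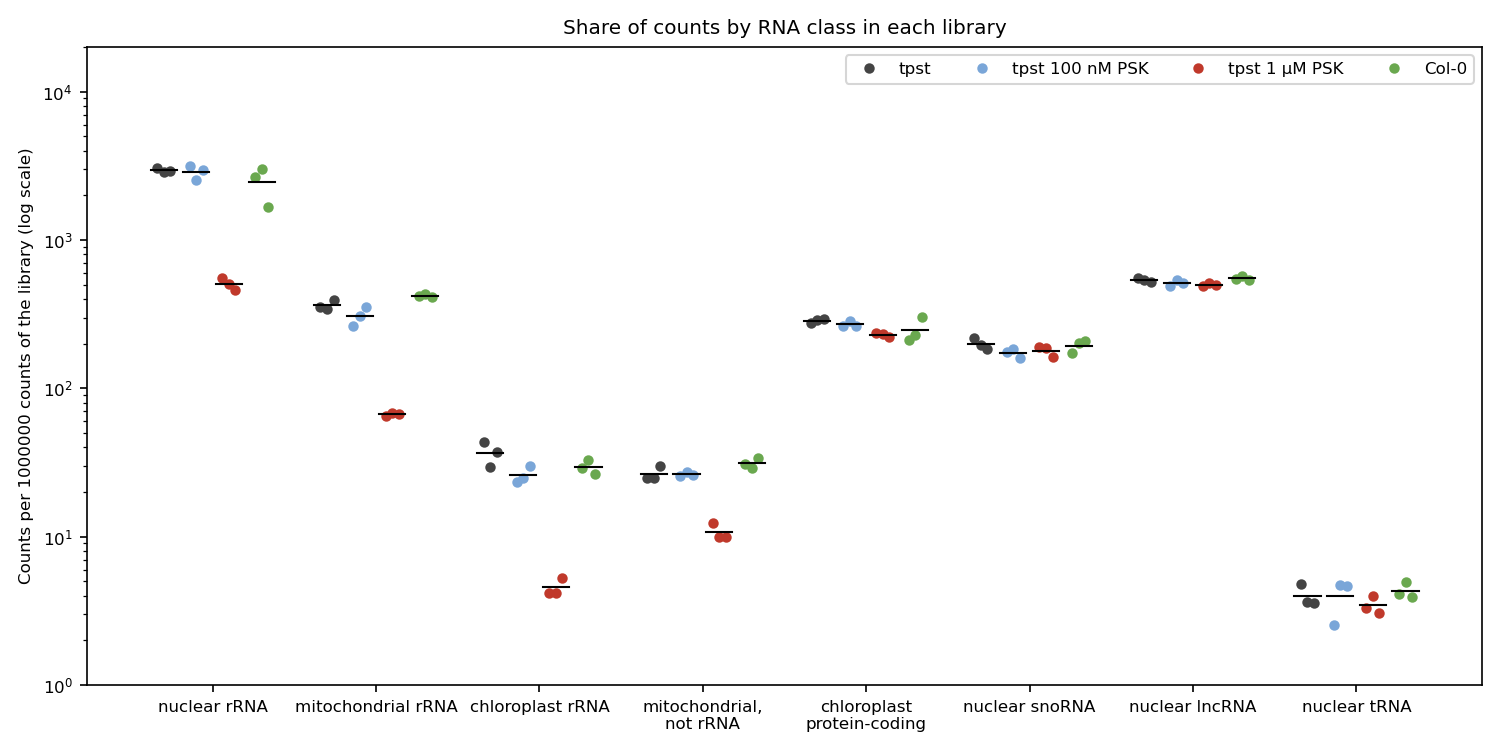
Counts per 1000000 counts of a library (vertical axis, log scale) taken by 8 classes of RNA in each library (points, with a line at the group mean). The 3 rRNA classes and the other mitochondrial genes are lower in the 1 µM PSK libraries, where nuclear rRNA averages 507 per 1000000 counts, against 2943 in untreated tpst, while the classes of small nucleolar, long noncoding and transfer RNA lie close together in all groups. Chloroplast protein-coding genes average 230 with 1 µM PSK and 286 in untreated tpst.

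The other chloroplast genes were set beside the chloroplast rRNAs. Of 125 genes in that chromosome that are not rRNA, 74 were tested, and at 1 µM PSK against untreated tpst 4 were called lower and 0 higher by edgeR and 5 were called by DESeq2. The 4 make up 5.41% of those tested, near the background of 6.45% called and 3.45% called lower. Their log2 changes ranged from -1.51 to 1.48 with a median of -0.13. The 4 genes were PSBC, with a log2 change of -1.51, PSBD with -1.01, RBCL with -0.94 and PSAA with -0.87, which encode photosystem proteins and the large subunit of Rubisco. At 100 nM PSK 0 were called by edgeR and by DESeq2, with 4 at an unadjusted p under 0.05 in edgeR.

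The nuclear partners of the mitochondrial genes gave 0 calls with PSK. Of 54 tested nuclear genes for the respiratory chain, for alternative respiration and stress signalling and for mitochondrial gene expression, 0 were called at 100 nM PSK, 0 at 1 µM PSK and 0 between the doses, by edgeR and by DESeq2. At an unadjusted p under 0.05 in edgeR there were 2 at 100 nM PSK, 3 at 1 µM PSK and 2 between the doses. Over all tested genes the adjusted test called 3.20%, 6.45% and 0.239% in these comparisons, and 12.6%, 18.9% and 10.2% had an unadjusted p under 0.05. For the 31 nuclear genes of the respiratory chain the log2 changes at 1 µM PSK against untreated tpst ranged only from -0.08 to 0.17, with a median of 0.03. For the 9 nuclear genes of mitochondrial gene expression they ranged from -0.19 to 0.18, and for the 14 tested genes of alternative respiration and stress signalling from -0.89 to 0.32.

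Other rows were called between mutant and wild type, and the uncertain split between rRNA copies described above applies to them. In untreated tpst against Col-0, 2 of the 26 genes were called, both higher, where 27.9% of all tested genes were called and 13.3% were called higher, so the members' share was below the background. AT2G01010 averaged 7.60 ± 0.783 CPM in tpst and 4.52 ± 0.299 CPM in Col-0 (SD, n = 3 each), a log2 change of 0.75 (SE 0.164, adjusted p = 0.00093 in edgeR's test). AT2G01020 averaged 8.93 ± 0.908 CPM in tpst and 5.86 ± 1.23 CPM in Col-0 (SD, n = 3 each), a log2 change of 0.62 (SE 0.151, adjusted p = 0.0027 in edgeR's test). After TMM scaling AT3G41768 was higher in every tpst library than in any Col-0 library, but narrowly. The lowest tpst library had 2896 CPM and the highest Col-0 library had 2878 CPM. AT3G41768 was not called, with a log2 change of 0.35 (SE 0.206, adjusted p = 0.260 in edgeR's test). In shares of all counts, which involve no scaling, nuclear rRNA overlapped between tpst and Col-0 (two-sided exact permutation p = 0.3). The chloroplast rRNA share overlapped as well (two-sided exact permutation p = 0.2).

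The mitochondrial share of counts was 391 ± 32.1 per 1000000 counts in tpst and 452 ± 5.47 in Col-0 (SD, n = 3 each), and the libraries did not overlap (two-sided exact permutation p = 0.1, the smallest possible, 0.133 after adjustment over 4 comparisons). This share involves no scaling, whereas the TMM factors were 0.982 to 0.992 in tpst and 1.04 to 1.07 in Col-0. After TMM scaling both RRN18 and RRN26 overlapped between tpst and Col-0. Their log2 changes were -0.12 (SE 0.134) and -0.10 (SE 0.0729), without a call. MATR had 0.275, 0.327 and 0.354 CPM in tpst and 0.810, 0.768 and 0.712 CPM in Col-0, which did not overlap. Its log2 change of -1.24 (SE 0.499) had an adjusted p of 0.064 in edgeR's test. The groups also differed in their tissue markers. The summed level of 5 root markers was 72.5 to 88.2 CPM in tpst and 217 to 242 CPM in Col-0, and that of 5 shoot markers was 34700 to 35270 CPM in tpst and 27104 to 28837 CPM in Col-0, with no marker at 0 in either group. The part of these differences in the rRNA results was not tested. With 1 µM PSK the root markers summed to 50.8 to 54.8 CPM and the shoot markers to 34176 to 35347 CPM. With 100 nM PSK the root markers summed to 53.4 to 58.1 CPM and the shoot markers to 33631 to 35116 CPM.

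Of the nuclear partner genes 13 of 54 were called in tpst against Col-0, all higher, or 24.1%. Over all tested genes 27.9% were called and 13.3% were called higher. They included UPOX (AT2G21640), an oxidative stress marker, at 11.9 ± 1.63 CPM in tpst and 6.17 ± 0.979 CPM in Col-0 (SD, n = 3 each), and the alternative oxidase AOX1C at 7.96 ± 1.04 CPM in tpst and 4.93 ± 0.657 CPM in Col-0 (SD, n = 3 each). The internal NAD(P)H dehydrogenase NDA1 had a log2 change of 0.69 and the uncoupling protein PUMP1 one of 0.25. These 4 belong to the list of alternative respiration and stress signalling, of which 5 of 14 tested genes were called. The log2 changes of the 14 ranged from -1.42 for AOX1B to 1.47 for NDB3, with a median of 0.18. Neither AOX1B nor NDB3 was called, nor was the alternative oxidase AOX1A at -0.21. The largest changes in the other lists were smaller. The respiratory chain genes that were called lay between 0.14 for GAMMACA2 and 0.24 for the ATP synthase beta subunit AT5G08690, and the gene expression list gave 0.31 for the DNA-binding protein WHY2, 0.24 for POLGAMMA2 and 0.17 for the helicase TWINKLE (AT1G30680).

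Many mitochondrial genes had few counts or none, and many of these have a nuclear copy. Of 152 rows on the mitochondrial chromosome 118 stayed under 20 counts and 65 had 0, among them cob, the gene of cytochrome b, and nad6, and 0 of 27 mitochondrial tRNA rows reached 20 counts. The nuclear genome of Col-0 carries a large insertion of mitochondrial DNA on chromosome 2. In the reference, alignments of at least 99% identity and 150 bases covered 72.7% of the 367808 bases of the mitochondrial genome, and those of 1000 bases or more on chromosome 2 lay within chr2:3239038-3509765. Of 31 genes whose names could be matched to the RefSeq mitochondrion, 20 had a nuclear copy over more than 90% of their bases, and 6 of these reached 20 counts, with 0 to 150 counts each and a median of 10. Of the 10 with a copy over less than 10% of their bases 9 reached 20 counts, with 11 to 52155 counts and a median of 177. The exception was RRN5 with 11 counts. Fragments that align equally well to both places cannot be assigned by sequence, so the counts of genes with a nuclear copy are uncertain. This applies to NAD7, NAD4 and MATR, whose changes are given above and which had a copy over 100% of their bases.

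**Figure D4:**
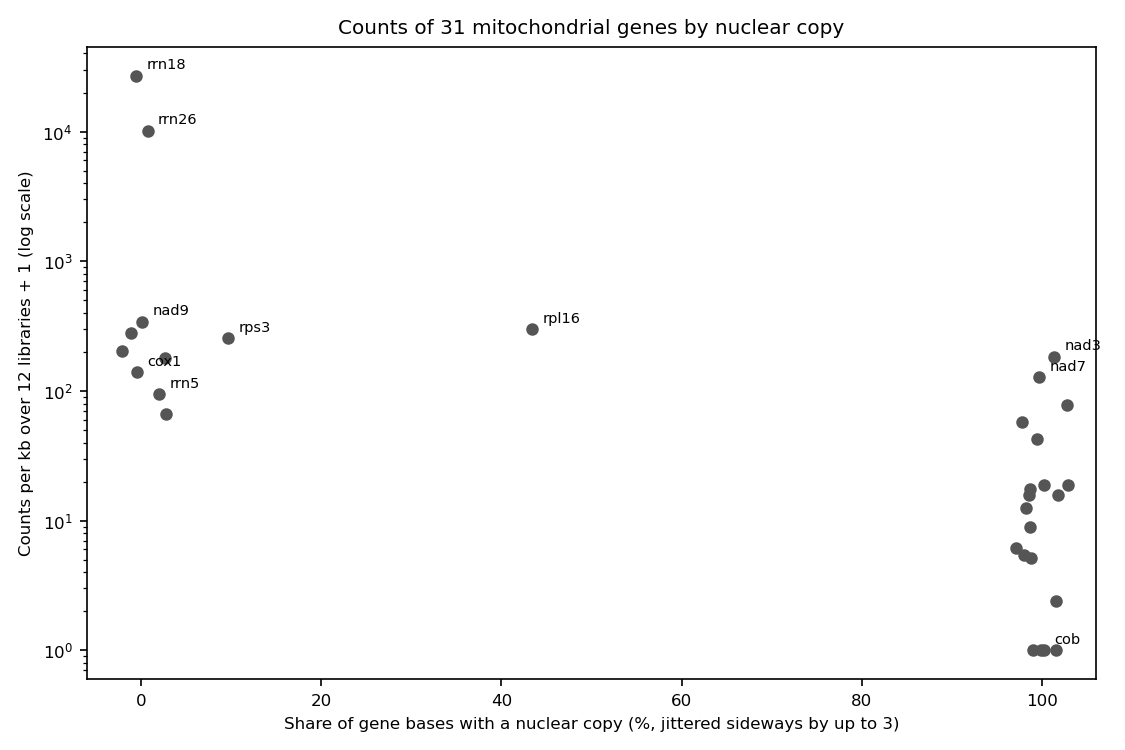
Counts per kilobase over the 12 libraries plus 1 (vertical axis, log scale) of 31 mitochondrial genes against the share of their bases that has a nuclear copy of at least 99% identity (horizontal axis, percent, jittered sideways by up to 3). The rRNA genes rrn18 and rrn26, at the left, have no or almost no nuclear copy, and most genes with a full copy, at the right, hold few counts.

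The rows on chromosome 2 inside this insertion were also lowest with 1 µM PSK. They were 124 genes, of which 62 had counts. Together they took 3.40 to 4.8 per 1000000 counts with 1 µM PSK and 7.47 to 9.50 in untreated tpst. Their mean was 8.26 in Col-0 and 8.55 in untreated tpst. The mitochondrial share is no like measure. Mitochondrial rRNA, with no or almost no nuclear copy, made up 364 of its 391 per 1000000 counts in untreated tpst. Mitochondrial genes other than rRNA took 31.3 per 1000000 counts in Col-0 and 26.6 in untreated tpst. No relation to the mitochondrial share was computed. The chromosome 2 rows took 4.96 to 7.96 with 100 nM PSK and 6.99 to 10.4 in Col-0. The 1 µM PSK libraries did not overlap any other group, and whether these fragments come from the mitochondrial or the nuclear copies cannot be told apart.

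Relations between the levels of these RNAs were computed over the 9 libraries without 1 µM PSK, since the 1 µM PSK libraries formed a separate cluster. Over 9 libraries the mitochondrial share and the share of nuclear and chloroplast rRNA had Pearson's r = -0.38 (exact permutation p = 0.33) and Spearman's rho = -0.23 (exact permutation p = 0.552), and r was 0.18 without the 2 libraries farthest from the median. The mitochondrial share against the share of other chloroplast genes gave r = -0.27 (exact permutation p = 0.481) and rho = -0.20 (exact permutation p = 0.613), with r = -0.06 without the 2 farthest libraries. The rRNA share against that of other chloroplast genes gave r = -0.40 (exact permutation p = 0.297) and rho = -0.47 (exact permutation p = 0.213), with r = -0.63 without the 2 farthest libraries. After adjustment over the 3 relations p was 0.481 for each r. With group means removed, r was -0.06 for the first relation (p = 0.926, exact permutation within groups), 0.05 for the second (p = 0.819) and -0.91 for the third (p = 0.0648, 0.194 after adjustment over the 3 relations). The third was -0.54 over 8 libraries without the third Col-0 library, a setting chosen after seeing the data. The third Col-0 library had the lowest nuclear rRNA share of these 9, 1680 per 1000000 counts, and the highest share of other chloroplast genes, 309.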

How the data were processed

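Libraries of poly(A)-selected RNA from whole seedlings were made, sequenced in pairs and trimmed with fastp by the authors, who aligned reads to TAIR10 with HISAT2 2.0.5 and assigned them with featureCounts 1.5.0-p3. The deposited table holds raw integer counts per gene and FPKM, which the authors computed from them; the FPKM equal counts over length times 1 constant per library. Strand and multi-mapping settings are not given in the sources used here. Mitochondrial coordinates in the table belong to another mitochondrial sequence than the reference used here.

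Counts were tested with edgeR 4.0.16 in R 4.3.3 (filterByExpr, TMM, robust quasi-likelihood, 12 libraries in 1 fit, 8 residual degrees of freedom, Benjamini-Hochberg over 20506 genes, two-sided). The precision rests on 17066292 to 24948416 counts per library, and a floor of 3 counts over a group stands for 0. The procedure was tested on simulated data. Shares were compared with exact permutation tests (scipy 1.17.1). Nuclear copies were found with BLAST+ 2.17.0+ in TAIR10.1 (RefSeq). Relations were computed without the 1 µM PSK libraries, a departure from the plan.

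The genes and lists were chosen with earlier results of these data known. Named genes were all rRNA genes, the 5 highest in FPKM, up to 10 called genes per comparison, the highest in each functional class and up to 4 called genes per context list (respiratory chain, alternative respiration and stress signalling, mitochondrial gene expression). The markers of seed remains summed to at most 0.630 CPM in any library and those of dividing cells to 56.5 to 62.9 CPM. Alternatives covered scaling, filter, DESeq2 1.42.0, the libraries fitted, a replicate block and leaving out each library.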

Additional observations from a re-analysis of the deposited data

Results flagged for a closer look

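The effects of the 2 doses differed for 8 genes, by the direct test of 1 µM PSK against 100 nM PSK in edgeR. The log2 differences were -1.67 for RRN26, -1.95 for ORF107A, -2.05 for RRN16S.2, -2.40 for RRN23S.1, -2.52 for AT3G41768, -2.58 for RRN18, -2.74 for RRN23S.2 and -2.90 for RRN16S.1. All 3 libraries with 1 µM PSK were below all 3 with 100 nM PSK for each of the 8.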

How the results depend on the processing

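All 8 genes called at 1 µM PSK against untreated tpst kept their direction and their call with every other scaling, without the filter, in DESeq2, with a replicate block, in a fit of the 6 libraries compared and without any single library. Against 100 nM PSK the exception was RRN23S.1 without the second 1 µM PSK library. Both genes called in tpst against Col-0 kept their call in all of these, and also without the 1 µM PSK libraries, a fit chosen after seeing the data. Of 344 such values 1 lost its call and 0 changed sign. Scaling by library totals only gave 4 calls in tpst against Col-0 in place of 2, with RRN26 and MATR added as lower. A fit of the 6 libraries compared gave 1 call in place of 0 at 100 nM PSK, RRN23S.1, 10 in place of 8 at 1 µM PSK against untreated tpst, with AT2G01020 and NAD7 added, and 11 in place of 8 at 1 µM against 100 nM PSK, with AT2G01020, ATMG00090 and ORF106F added. DESeq2 gave 9 in both 1 µM PSK comparisons, with ATMG00090 added. Leaving out each library in turn gave 2 to 3 calls in tpst against Col-0 (RRN23S.2 added without the first Col-0 or the second tpst library, RRN23S.1 without the second Col-0 library), 0 to 1 at 100 nM PSK, 8 to 12 at 1 µM PSK against untreated tpst (12 without the third Col-0 library) and 7 to 11 at 1 µM against 100 nM PSK.

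The number of genes called in the whole table moved more. At 1 µM against 100 nM PSK it was 49 in edgeR, 148 in DESeq2, 97 without the filter, 95 with a replicate block and 467 in the fit of 6 libraries, and 17 to 535 when a library was left out. At 1 µM PSK against untreated tpst it was 1323, 2115 in the fit of 6 libraries and 778 to 2174 when a library was left out, and at 100 nM PSK it was 656 and 407 to 1033. The cause was not tested. The replicate block gave 2, 0, 8 and 8 members called in the 4 comparisons, as without it. Same-numbered libraries did not deviate together (mean r = 0.008 over 18 pairs, 0 of them above 0.1), so the numbers do not pair them.

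Nuclear protein-coding genes made up 99.4% of counts in untreated tpst and 99.7% with 1 µM PSK. Taking them as the denominator could therefore hardly change the folds of the 3 shares, and it is no check on them. Without single libraries the 1 µM PSK share was 0.192 to 0.208 of that in untreated tpst for mitochondrial genes, 0.164 to 0.180 for nuclear rRNA and 0.113 to 0.137 for chloroplast rRNA. Depth limits the low genes: 17 of the 43, with 82 counts or fewer in all, could not be tested.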
